A study of Oryza sativa with 2 samples.

Results

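A pair of neighbouring genes on rice chromosome 1 and a gene on chromosome 7 stood far above the nontransgenic level in the leaf library of plants that overexpress Roc10. The first, OS01G0108400, is annotated in the deposited table with a helix-loop-helix DNA-binding domain. The other two, OS01G0108500 and OS07G0162450, are annotated with DUF3778, a protein domain of unknown function. These 3 genes, of 76131 rows in the full table, were picked by identifier for the size of their FPKM difference between the libraries, so their own differences are given as a description, with no test. FPKM counts fragments relative to transcript length and to the number of fragments mapped in the library.

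RNA was taken from the leaves of rice plants (cultivar Ilmi) kept in normal conditions, at 2 weeks of age, after germination at 28 °C for 4 days. The control library, NT, is from nontransgenic plants. The other library, PGD1:Roc10, is from plants of the same cultivar in which a promoter that the labels describe as active in the whole body drives Roc10, a homeodomain-leucine zipper transcription factor. Each group has 1 library, with 27683296 mapped read pairs in NT and 21866514 in PGD1:Roc10, and the labels give neither the number of plants nor the number of transgenic lines in a library. No difference here therefore has a replicate check, and in whole leaf a change in the number of expressing cells and a change in RNA per cell cannot be told apart. The level of Roc10 itself was not analysed here. Both libraries carried abundant leaf transcripts: the 14 rows naming a chlorophyll a/b-binding protein summed to 19143 FPKM in NT and 18601 FPKM in PGD1:Roc10. Of the seed storage proteins, the 25 prolamin rows summed to 1.05 and 2.59 FPKM and the 12 glutelin rows to 68.3 and 76.4 FPKM.

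Basic helix-loop-helix (bHLH) proteins are a large family of plant transcription factors. The basic region contacts DNA, commonly at the short motif called the E-box, and the helix-loop-helix region pairs the protein with a partner of the same family. Members act in light signalling, in cold and iron responses, in jasmonate and brassinosteroid signalling and in the development of epidermal cells. DUF3778 is a label given to a conserved stretch of protein whose biochemical role has not been assigned, so the name of these genes says what they resemble and not what they do.

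The bHLH gene OS01G0108400 lies on chromosome 1 from 455706 to 457425 on the IRGSP-1.0 assembly. Its level was 19.6 FPKM in NT against 172 FPKM in PGD1:Roc10, a ratio of 8.80. It was thus already well expressed in the control leaf, above 64.7% of the 20702 measured coding rows, and in the PGD1:Roc10 library it was above 96.9% of them. A row is called measured when its mean over both libraries is at least 1 FPKM. Differences are log2(FPKM + 1) in PGD1:Roc10 minus the same in NT, and OS01G0108400 differed by 3.07 on this scale. The added 1 FPKM makes the change of a weakly expressed gene look smaller than its plain ratio.

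The first DUF3778 gene, OS01G0108500, is the next annotated coding locus on chromosome 1, from 460176 to 461371. Its start lies 4470 bases from that of the bHLH gene, and 2750 bases separate the loci. It stood at 4.02 FPKM in NT, where it was above only 24.6% of the measured coding rows, and at 84.8 FPKM in PGD1:Roc10, where it was above 92.2% of them. The ratio was 21.1 and the difference was 4.09 on the log2(FPKM + 1) scale. Both genes of the pair were therefore present in control leaf, the bHLH gene at the higher level in each library.

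The second DUF3778 gene, OS07G0162450, lies on chromosome 7 from 3339393 to 3340629. It was listed at 0 in NT and stood at 79.9 FPKM in PGD1:Roc10, close to the level of OS01G0108500 in that library. No fold is given against a listed 0. For scale, the lowest value above 0 among 835 coding rows whose locus span is within 5% of its own 1237 bases was 0.0320 FPKM in NT, and 277 of these rows were listed at 0 there. Its difference on the log2(FPKM + 1) scale was 6.34, a value set in large part by the added 1 FPKM, and it became 9.64 with 0.1 FPKM added and 4.09 with 5 FPKM added.

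By difference among the measured coding rows, OS07G0162450 ranked 3, OS01G0108500 ranked 18 and OS01G0108400 ranked 44. Among all measured rows, which include non-coding rows, they ranked 21, 49 and 85 in the same order. Of the 21875 measured rows, 2.29% were past 2-fold toward PGD1:Roc10 and 1.29% past 2-fold toward NT. Over the coding rows alone the shares were 2.03% and 0.923%. The median difference over all measured rows was -0.01. Because the genes were chosen by this contrast, their place in it is only a description.

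The authors' deposited table called all 3 genes significant, each with q = 0.0111, the lowest q there. That q goes with p = 5e-05 in the authors' deposited table, which 111 rows shared, so it does not rank the genes. Of the 24683 rows that the authors' deposited table tested, 0.579% were called, 0.474% as higher in PGD1:Roc10 and 0.105% as lower. Those p and q values come from Cuffdiff with 1 library on each side and so carry no measured spread between plants. The authors' shorter sheet of 96 genes holds the chromosome 1 pair and not OS07G0162450. Of the 143 rows called, 47 were listed at 0 in one of the libraries.

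Among coding rows listed at 0 in NT, OS07G0162450, which was picked for its difference, had the highest value in PGD1:Roc10. Listed at 0 in NT were 8074 of 35476 coding rows, and 6948 of those were at 0 in both libraries. At least 1 FPKM in PGD1:Roc10 was reached by 87 rows listed at 0 in NT, and at least 10 FPKM by 9. In the reverse direction, 46 rows listed at 0 in PGD1:Roc10 had at least 1 FPKM in NT and 1 had at least 10 FPKM. Next below it in that library among rows listed at 0 in NT were OS02G0772150, of unknown function, at 56.8 FPKM, and OS03G0299700, a conserved hypothetical gene, at 29.3 FPKM in PGD1:Roc10.

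The table names DUF3778 in 9 rows, on chromosomes 1, 2, 4, 6, 7 and 8, and 6 of them were measured. OS01G0108500 and OS07G0162450 were the 2 past 2-fold, both toward PGD1:Roc10, which is how they were chosen. The other 4 measured genes differed by -0.10 to 0.44 on the log2(FPKM + 1) scale. None of the 4 was past 2-fold, a count that shares of 2.29% and 1.29% over all measured rows would also give, so it says nothing particular about the family.

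The most abundant DUF3778 gene was OS01G0537250, on the same chromosome as OS01G0108500, at 213 FPKM in NT and 225 FPKM in PGD1:Roc10. OS04G0478000 stood at 61.2 FPKM in NT and 56.9 FPKM in PGD1:Roc10. It was the 1 measured family gene with the lower value in PGD1:Roc10. This held when summed FPKM over coding rows was made equal and when the libraries were scaled by the median ratio. When summed FPKM over all rows was made equal, OS01G0537250 was lower too, and the median of all measured rows moved to -0.20. OS08G0195400 stood at 15.4 and 21.3 FPKM in the same order. These 3 genes were well expressed in both libraries and within 1.5-fold of equality, at plain ratios of 1.06, 1.08 and 1.38. OS06G0543601 was near the lower limit of the measured rows, at 0.762 FPKM in NT and 1.32 FPKM in PGD1:Roc10.

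The remaining 3 DUF3778 rows were close to 0. OS01G0567200 stood at 0.0658 FPKM in NT and 0.166 FPKM in PGD1:Roc10. OS02G0265300 was at 0.164 FPKM in NT and listed at 0 in PGD1:Roc10, and OS01G0780900 was listed at 0 in both. In control leaf the family thus ran from 0 to 213 FPKM. In the PGD1:Roc10 library OS01G0108500 and OS07G0162450 came next after OS01G0537250 and above the other 6.

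**Figure D1:**
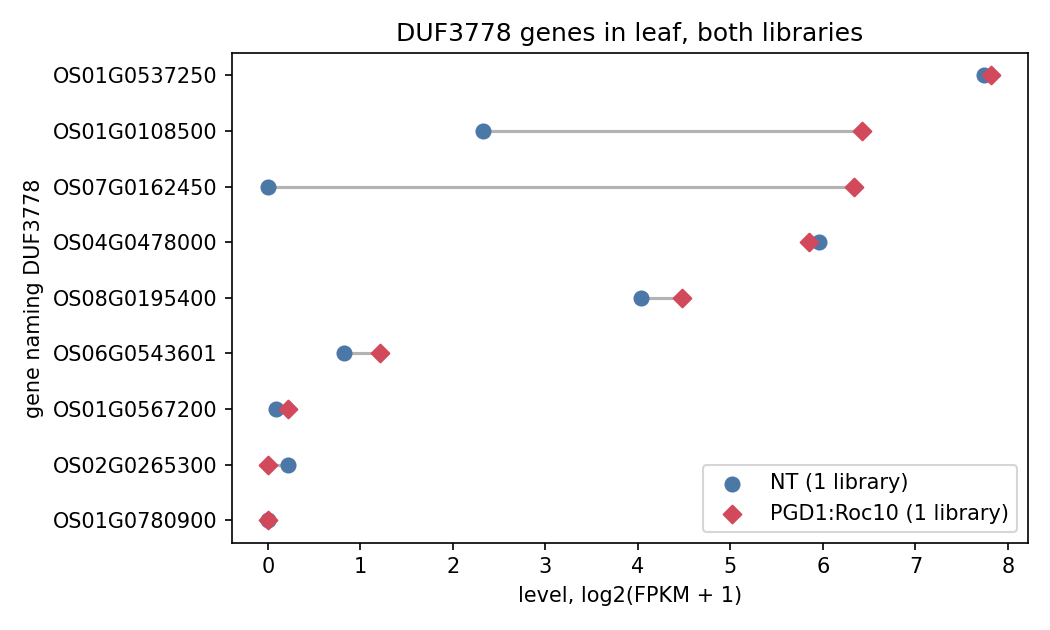
Level of each of the 9 DUF3778 genes on the log2(FPKM + 1) scale (horizontal axis), with a circle for the NT library and a diamond for the PGD1:Roc10 library, joined by a grey line. The lines of OS01G0108500 (4.02 to 84.8 FPKM) and OS07G0162450 (listed 0 to 79.9 FPKM) are long, and the other 7 genes differ by at most 0.44 between the libraries.

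Sequence evidence in the annotation ties OS01G0108500 to other loci. Its description cites a full-length cDNA as a secondary hit, and the same cDNA is the best hit of OS01G0567200, the DUF3778 gene that was near 0 in both libraries. The same reference protein is cited by 3 rows, namely these and OS03G0629800, a conserved hypothetical gene listed at 0 in both libraries. Reads from similar copies could have been divided among these loci, so the level of OS01G0108500 is less certain than that of a gene with sequence evidence of its own. The cDNA and the protein cited for OS07G0162450 are cited by no other row, and the same holds for OS01G0108400. No other row of the table overlaps the locus of any of the 3 genes.

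The surroundings of the chromosome 1 pair were examined for 50 kb on each side. Of 25 rows there, 14 are coding and 7 were measured, and 0 of the 7 were 2-fold higher or lower, beside 2.29% and 1.29% of all measured rows, shares at which 0 of 7 is not unusual. Their differences ran from -0.25 to 0.45 with a median of 0.03, beside -0.01 for all measured rows. On the lower side, the nearest measured gene is OS01G0108200, similar to prolyl endopeptidase, an enzyme that cuts peptides after proline. It stood at 18.5 FPKM in NT and 17.9 FPKM in PGD1:Roc10. On the upper side, the nearest is OS01G0108600, a conserved hypothetical gene, at 52.3 FPKM in NT and 71.7 FPKM in PGD1:Roc10. Next to it, OS01G0108800, a DUF936 gene, stood at 2.09 and 3.17 FPKM. OS01G0109000, similar to a group 3 late embryogenesis abundant protein, of a class that accumulates in drying tissue, stood at 15.4 and 14.4 FPKM. OS01G0109300, similar to a predicted protein, stood at 23.4 and 24.0 FPKM. Beyond OS01G0108200, OS01G0108000 stood at 16.0 and 17.2 FPKM and the DUF3506 gene OS01G0107900 at 68.0 and 57.0 FPKM. The 7 coding rows that were not measured did not exceed 0.898 FPKM in either library, and the 11 non-coding rows were listed at 0 in both.

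On chromosome 7, OS07G0162450 sits within a row of genes with an alpha/beta hydrolase fold, the fold of many plant carboxylesterases and of the gibberellin receptor. Within 50 kb on each side, 11 of 25 rows were measured and 0 were 2-fold higher or lower, again beside 2.29% and 1.29% of all measured rows. Their differences ran from -0.46 to 0.98 with a median of -0.23, beside -0.01 for all measured rows. Of the 11, 8 were lower in PGD1:Roc10, beside 11179 of the 21875 measured rows. Rows that share a locus were counted separately, and a change of the whole region was not tested. The flanking hydrolase genes were expressed in both libraries. OS07G0162400, on the lower side, stood at 23.1 FPKM in NT and 23.8 FPKM in PGD1:Roc10. OS07G0162500, on the upper side, stood at 36.9 and 31.1 FPKM, and OS07G0162600 at 27.1 and 22.4 FPKM. The fourth hydrolase gene, OS07G0162700, had the largest difference of the neighbours, at 2.98 FPKM in NT and 6.85 FPKM in PGD1:Roc10. Its plain ratio was 2.30, and it fell just short of 2-fold on the log2(FPKM + 1) scale.

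Farther out on chromosome 7, OS07G0162100, with a steroid dehydrogenase C-terminal domain, stood at 54.7 FPKM in NT and 39.4 FPKM in PGD1:Roc10. OS07G0162300, similar to RIO kinase, a family that acts in ribosome maturation in yeast, stood at 57.8 and 54.0 FPKM. OS07G0162900, with a lipase active-site motif, stood at 10.8 and 8.92 FPKM. OS07G0163000, similar to an FAD-linked oxidase, stood at 7.23 and 6.03 FPKM, and OS07G0163066, at the same locus, at 2.33 and 1.62 FPKM. At the other edge, OS07G0161600 stood at 21.0 and 21.8 FPKM and OS07G0161650, at the same locus, at 8.04 and 7.58 FPKM. The 3 coding rows that were not measured did not exceed 0.350 FPKM, and the 11 non-coding rows were listed at 0 in both libraries. The genes on both sides of OS07G0162450 were therefore transcribed in NT leaf, where OS07G0162450 itself was listed at 0.

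**Figure D2:**
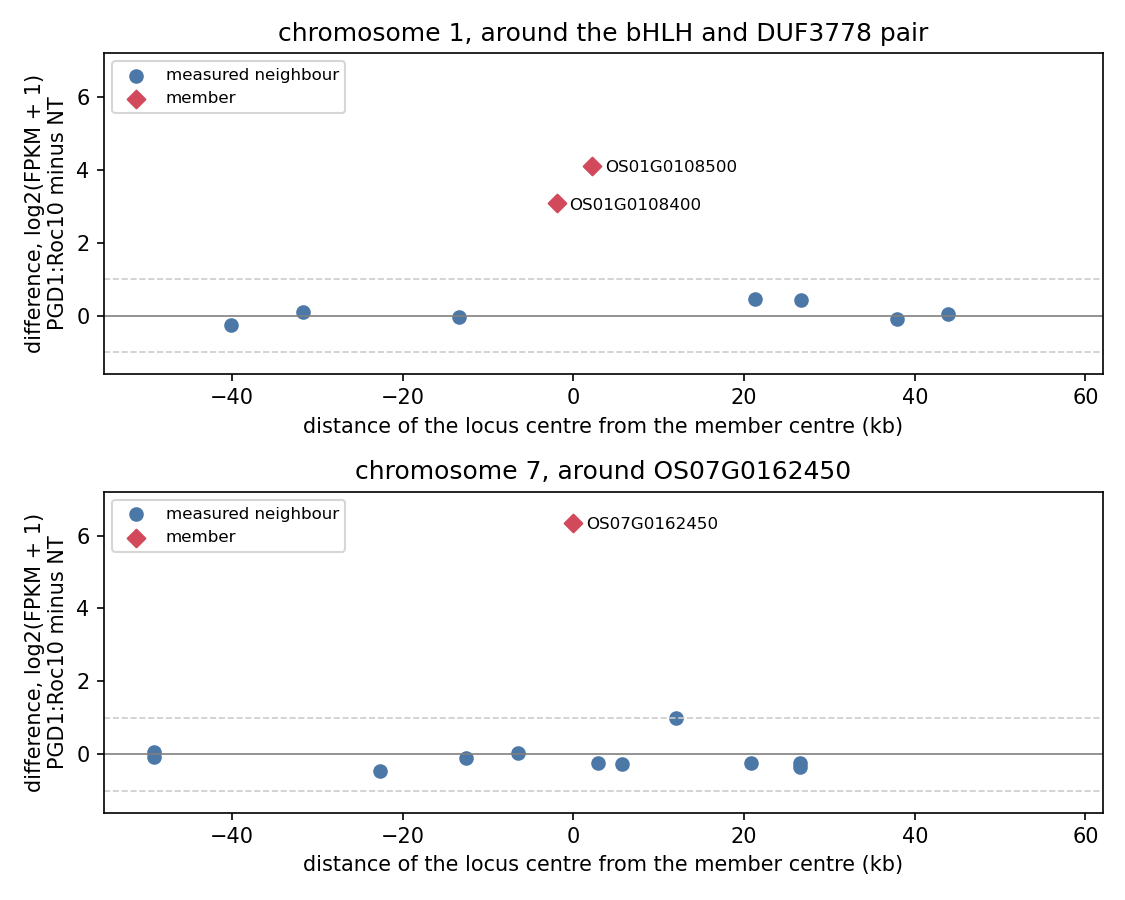
Difference in log2(FPKM + 1), PGD1:Roc10 minus NT (vertical axis), of measured rows by the distance of their locus centre in kb from the centre of the chromosome 1 pair (top) or of OS07G0162450 (bottom). Diamonds mark the 3 genes, circles the 7 and 11 measured neighbours, and dashed lines a 2-fold difference. All 18 neighbours lie between the dashed lines.

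Pairs of neighbouring genes with both past 4-fold toward PGD1:Roc10 were few. Among measured coding rows alone at their locus, 6992 pairs of neighbours lay within 5 kb of each other. In 16 pairs both genes were past 2-fold toward PGD1:Roc10, and in 7 of these both were past 4-fold. In 4 pairs both genes were past 2-fold toward NT, and in 1 of these both were past 4-fold. At least 1 gene was 4-fold higher in 67 pairs. The chromosome 1 pair is one of the 7, and its choice rests on these values.

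The other 6 pairs hold 11 genes on chromosomes 5, 6 and 10. OS10G0503250, a hypothetical gene, and OS10G0503300, similar to a taxane acetyltransferase, lie 266 bases apart and differed by 3.55 and 4.00. The next 2 pairs share a gene, OS10G0569500, which lies between OS10G0569400, named RIR1a, and the RIR1b-like OS10G0569600. RIR1 genes are known in rice as induced in defence. The remaining 3 pairs, OS05G0142100 with OS05G0142200, OS05G0142900 with OS05G0143000, and OS06G0591200 with OS06G0591400, are all conserved hypothetical genes. In those 6 pairs no gene is annotated as a transcription factor, but most of the 11 genes are annotated only as hypothetical. The share of transcription factors over all measured coding rows was not computed, so this does not set the chromosome 1 pair apart.

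**Figure D3:**
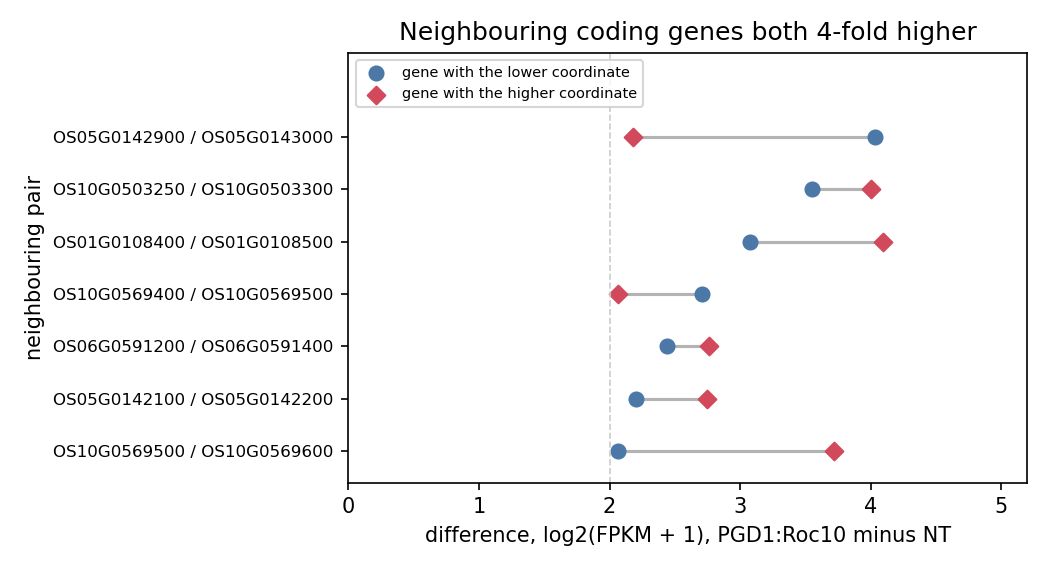
The 7 pairs of neighbouring coding genes within 5 kb of each other in which both genes were past 4-fold toward PGD1:Roc10. The horizontal axis gives the difference in log2(FPKM + 1), PGD1:Roc10 minus NT, with a circle for the gene with the lower coordinate, a diamond for the other and a dashed line at 4-fold. OS01G0108400 and OS01G0108500 stand at 3.07 and 4.09.

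Among measured bHLH genes, OS01G0108400 had the largest difference and the highest level in PGD1:Roc10. It was picked for the size of this difference, so its place in the family is only a description. The table names a bHLH or helix-loop-helix protein in 116 rows, of which 55 were measured. Of the 55, 4 were past 2-fold toward PGD1:Roc10 and 0 toward NT, beside 2.29% and 1.29% of all measured rows. Apart from OS01G0108400, 20 of the other 54, or 37.0%, were higher in PGD1:Roc10, beside 48.9% of all measured rows. The remaining 34 were lower, and the median difference of the 54 was -0.10, beside -0.01 for all measured rows. With summed FPKM over all rows made equal, 11 of the 54 were higher and 43 lower. Their median was then -0.30, beside the -0.20 of all measured rows. With summed FPKM over coding rows made equal, 22 were higher and 32 lower, with a median of -0.07 beside 0.02. With the libraries scaled by the median ratio, 21 were higher and 33 lower, with a median of -0.09 beside 0.005. In NT, 19 bHLH genes stood above OS01G0108400.

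The other 3 bHLH genes past 2-fold on the log2(FPKM + 1) scale were all low in NT. OS01G0575200 stood at 0.635 FPKM in NT and 3.73 FPKM in PGD1:Roc10, OS01G0218100 at 2.18 and 6.32 FPKM, and OS01G0230200 at 3.87 and 9.30 FPKM. All are on chromosome 1, with starts at 22138043, 6462769 and 7216512 in the same order, far from OS01G0108400 at 455706. Other measured bHLH genes lie on that chromosome too, and the shared chromosome was seen after the values and not tested. None of the 3 was called in the authors' deposited table, where their q values were 0.469, 0.641 and 0.625. Next below them were OS04G0301500, at 0.658 and 1.45 FPKM, and OS06G0193400, at 19.1 and 28.2 FPKM.

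On the lower side, the largest difference, -0.87, was that of OS04G0618600, similar to HFR1, which acts in light signalling in Arabidopsis, at 2.94 FPKM in NT and 1.16 FPKM in PGD1:Roc10. OS03G0311600 followed at 1.60 and 0.559 FPKM, then OS02G0315600 at 3.22 and 1.57 FPKM. OS05G0139100 stood at 18.5 and 11.7 FPKM, and OS07G0628500 at 4.93 and 2.88 FPKM. The 1 other bHLH gene called in the authors' deposited table was OS10G0104300, with q = 0.0111 there, which was at 0.763 FPKM in NT and listed at 0 in PGD1:Roc10. It was below the limit for measured rows.

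Of the 5 bHLH genes most abundant in control leaf, none differed by 1.5-fold in the values as deposited. OS08G0506700 stood at 150 FPKM in NT and 136 FPKM in PGD1:Roc10, OS08G0138500 at 122 and 121 FPKM, and OS01G0924400, described as similar to an auxin-induced bHLH factor, at 133 and 108 FPKM. OS03G0782500 stood at 118 and 83.0 FPKM, a ratio of 1.43, and OS01G0900800 at 72.4 and 52.5 FPKM, a ratio of 1.38. In PGD1:Roc10, OS01G0108400 stood above all of them. Of genes described after Arabidopsis factors other than the HFR1-like gene, OS01G0928000, similar to ICE1, a cold-response regulator, stood at 31.8 FPKM in NT and 32.6 FPKM in PGD1:Roc10. Of 2 genes similar to phytochrome-interacting factor 3, OS07G0182200 stood at 24.7 and 25.8 FPKM and OS12G0610200 at 17.6 and 14.5 FPKM. These genes were picked for their level or their description after the values were seen.

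**Figure D4:**
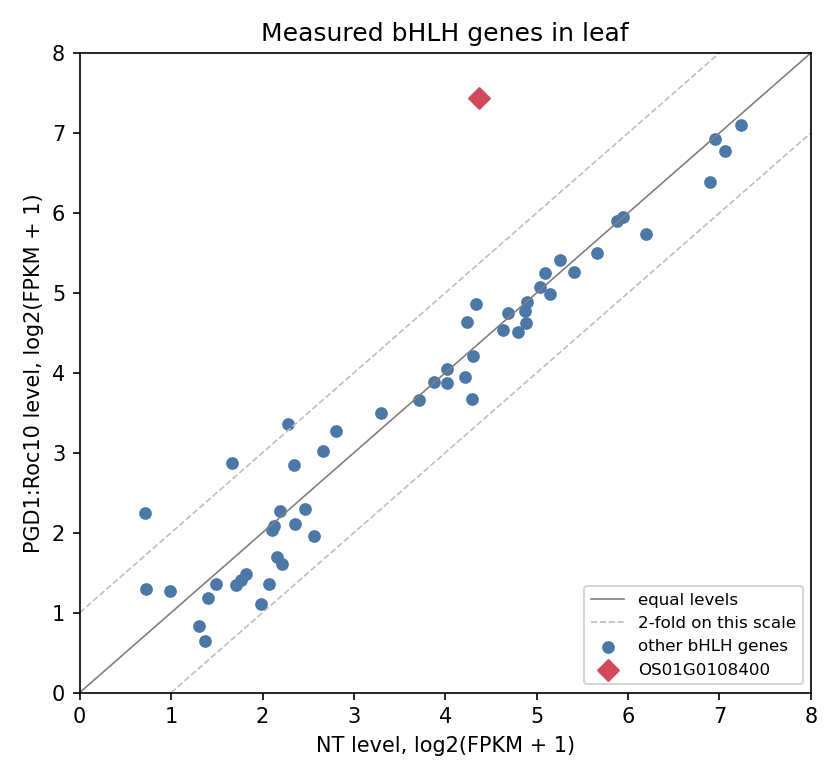
Level of the 55 measured bHLH genes in the NT library (horizontal axis) and the PGD1:Roc10 library (vertical axis), both as log2(FPKM + 1). The solid line marks equal levels and the dashed lines a 2-fold difference on this scale. OS01G0108400 (diamond, 19.6 and 172 FPKM) lies far above the upper dashed line, and 3 of the other 54 genes also lie above it.

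With 1 value per library, likeness between genes was taken as the distance between their positions on the plane of log2(FPKM + 1) in NT and in PGD1:Roc10, over 2 libraries, among measured coding rows. The 5 genes nearest to OS01G0108400 were OS06G0591400, the cytochrome P450-like OS09G0441400, OS10G0569400 (RIR1a), the amino acid transporter gene OS08G0127100 and the alpha/beta hydrolase gene OS05G0410200. The closest, OS06G0591400, stood at 21.7 FPKM in NT and 153 FPKM in PGD1:Roc10, a distance of 0.22. OS09G0441400, described as elicitor-inducible, stood at 21.4 and 140 FPKM. All 5 were called in the authors' deposited table, beside 0.579% of the rows tested there. They were picked for values close to those of a called gene, so these calls are only a description.

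Nearest to OS01G0108500 were the hypothetical gene OS08G0482500, at 4.30 FPKM in NT and 74.3 FPKM in PGD1:Roc10, and the sesquiterpene synthase-like OS08G0167800, at 3.54 and 59.6 FPKM. Sesquiterpene synthases make volatile and defence terpenes. The next were OS06G0493100 and OS05G0142200, both of unknown function, and the chitinase-like OS01G0687400, at 5.46 and 42.6 FPKM. The authors' deposited table called all of these but the closest, OS08G0482500, which had q = 0.999 there, beside 0.579% of the rows tested called. They too were picked for values close to those of a called gene. Nearest to OS07G0162450 were OS03G0115800, a conserved hypothetical gene at 0.0712 and 98.7 FPKM, OS02G0772150 and OS02G0772100, which share 1 locus, the EF-hand gene OS03G0812400 at 0.710 and 59.2 FPKM, and the hypothetical gene OS04G0223600. EF-hand proteins bind calcium. Of these 5, the authors' deposited table called only OS02G0772100, with q = 0.0287, whereas OS03G0115800 had q = 0.999 in the authors' deposited table despite a similar pair of values.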

How the data were processed

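Strand-specific RNA sequencing libraries from leaves, 1 per group, were assigned to groups by the library codes in the labels. Reads were trimmed, aligned with TopHat 2.0.12 to IRGSP-1.0 with Ensembl Plants release 23, and quantified with Cufflinks and Cuffdiff 2.2.1, per the file headers. The deposited values are FPKM, computed by the authors. The p-value and q-value columns are those that the authors deposited, and were copied. Not given in the sources used here are the normalization between libraries and whether counting used strand. The other deposited numbers of reads and mapped pairs were used for depth only.

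FPKM holds no counts, but low values kept whole-fragment steps. Among 2333 rows between 0 and 0.3 FPKM in both libraries, the commonest step put PGD1:Roc10 1.24 times above NT, beside a ratio of mapped pairs of 1.27. No interval per gene is given, and precision is limited by 1 library per group.

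The members and lists were chosen with earlier results of these data known. The named genes are the members, the DUF3778 rows, measured rows within 50 kb of a member (the rest there are given as counts), the 5 bHLH genes with the largest difference in each direction, bHLH genes called by the authors, and the 5 rows most like each member. Other genes were named after their values were seen. Alternatives were other pseudocounts, scalings, filters, fold thresholds, windows and list definitions. The RefSeq table supplied as a reference matched 0 of the 3 members and was not used, and no sequence is shown. Python 3.11.15, NumPy 2.4.6, pandas 2.3.3 and matplotlib 3.10.9 were used, and the counting was tested on simulated data. The simulated data held no low FPKM values and only 4-fold changes, so they do not bear on calls at low FPKM or near 2-fold.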

Additional observations from a re-analysis of the deposited data

How the results depend on the processing

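No paired analysis was possible because each group has 1 library, and for the same reason no library could be left out. The differences of OS01G0108400 ran from 2.85 to 3.13 and those of OS01G0108500 from 3.32 to 4.36 over 6 alternatives each. That of OS07G0162450 moved from 6.34 to 9.64 with a pseudocount of 0.1 FPKM and to 4.09 with 5 FPKM. Scaling both libraries to the same total over all rows moved the median of all measured rows to -0.20, and the other scalings moved it by less than 0.1. The 2 DUF3778 genes past 2-fold became 0 without the members, an alternative added after the data were seen.

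The count of bHLH genes 2-fold higher, 4, became 1 with a pseudocount of 5 FPKM, 2 above a mean of 5 FPKM and 1 at 4-fold. The count of bHLH genes lower, 0, became 2 and 1 with pseudocounts of 0.1 and 0.5 FPKM and 6 at 1.5-fold. Among the chromosome 7 neighbours, the count of genes higher became 1 with pseudocounts of 0.1 and 0.5 FPKM, with the same total over coding rows and at 1.5-fold. This was OS07G0162700. Over all rows, the 502 higher and 282 lower became 214 and 100 with a pseudocount of 5 FPKM, 249 and 138 above a mean of 5 FPKM, 1122 and 856 at 1.5-fold and 182 and 88 at 4-fold, and the count lower became 483 with 0.1 FPKM. These counts follow from the settings' own construction. The other 110 of 132 alternatives were equal to the main value or within 1.5 times of it. Many of these are counts of 0 that stayed 0, and others are the DUF3778 count of 2, made up of the chosen members. The 110 are therefore no measure of how firm the results are.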
